A study of Mus musculus with 24 samples.

Results

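Collagens are secreted proteins in which 3 alpha chains wind into a triple helix, and each alpha chain has its own gene. The chains described here are the 44 rows, of 22943 genes in the deposited table, whose symbol has the form Col, a number, a and a second number. They were grouped as 11 fibrillar chains, 9 network chains, 6 beaded filament chains, 1 anchoring fibril chain, 9 fibril-associated chains (FACIT), 4 transmembrane chains, 2 multiplexins and 2 others. RNA was measured by bulk sequencing in uteri of 21-day-old female C57bl/6 mice. Each value is a batch-corrected RPKM, that is, a read density per kilobase and library size that the authors then corrected for batch. The knockouts (cKO, PgrCre+Ctcf-flox) carry a floxed Ctcf gene and a Cre recombinase driven by Pgr, the gene of the progesterone receptor. The controls (floxed, Ctcf-flox) are littermates with the same floxed gene and no Cre, so the effects of losing Ctcf and of carrying Cre cannot be told apart, and cells that never express Pgr keep an intact gene. Mice of both genotypes were taken 6 h after a subcutaneous injection of 0.05 ml sesame oil, which held either 0.5 mg of progesterone (P4) or nothing else (vehicle). There were 4 cKO P4, 8 cKO vehicle, 4 floxed P4 and 8 floxed vehicle libraries. The labels place them in 2 library batches: the mixed batch holds 4 libraries of every group, and the vehicle-only batch holds the remaining 4 cKO vehicle and 4 floxed vehicle libraries.

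Fibrillar collagens, above all types I and III, form the rope-like fibrils that give the uterine wall its tensile strength, with type V starting fibrils and setting their width. Type IV builds the sheet of every basement membrane, under epithelium and around vessels and smooth muscle cells, and type VI forms beaded filaments between that sheet and the fibrils. FACIT chains sit on the surface of fibrils, multiplexins sit in the basement membrane zone, and transmembrane collagens are held in the cell surface.

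Several genes for chains of 1 collagen type lie side by side, and 2 such groups hold some of the chains called between genotypes below. Col6a6, Col6a5 and Col6a4 stand in a row on the minus strand of chromosome 9 (GRCm38; chr9:105687809-105828160, chr9:105856078-105960643 and chr9:105989454-106096783), 27.9 and 28.8 kb apart, and each encodes a type VI chain that can take the place of Col6a3. Col4a6 and Col4a5 stand head to head on chromosome X (chrX:141165403-141474076 on the minus strand and chrX:141475385-141689234 on the plus strand) and encode the chains of the alpha 5, alpha 5, alpha 6 form of type IV. The bases just before their starts are shown because these neighbours were called together between genotypes after vehicle. The bases are from RefSeq (GRCm38.p6), read 5′ to 3′ on the gene's own strand. They end where the RefSeq or the GENCODE M21 gene begins, whichever lies further upstream. Capitals mark a CCAAT box (CCAAT) or a GC box (GGGCGG, or CCGCCC on the other strand).
Col6a6 (chr9:105828161-105828335, minus strand): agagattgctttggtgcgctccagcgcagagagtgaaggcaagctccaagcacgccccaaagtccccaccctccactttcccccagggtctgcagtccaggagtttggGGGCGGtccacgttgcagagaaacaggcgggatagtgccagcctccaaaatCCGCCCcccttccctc
Col6a5 (chr9:105960644-105960893, minus strand): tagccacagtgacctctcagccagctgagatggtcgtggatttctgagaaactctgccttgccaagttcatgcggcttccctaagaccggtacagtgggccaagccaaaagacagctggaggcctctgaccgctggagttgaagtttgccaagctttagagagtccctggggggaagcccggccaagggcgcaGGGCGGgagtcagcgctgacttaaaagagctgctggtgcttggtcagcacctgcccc
Col6a4 (chr9:106096784-106096941, minus strand): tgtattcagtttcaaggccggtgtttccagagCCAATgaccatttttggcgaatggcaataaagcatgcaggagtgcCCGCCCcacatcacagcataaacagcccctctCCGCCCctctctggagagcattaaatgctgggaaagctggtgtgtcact
Col4a6 (chrX:141474077-141474326, minus strand): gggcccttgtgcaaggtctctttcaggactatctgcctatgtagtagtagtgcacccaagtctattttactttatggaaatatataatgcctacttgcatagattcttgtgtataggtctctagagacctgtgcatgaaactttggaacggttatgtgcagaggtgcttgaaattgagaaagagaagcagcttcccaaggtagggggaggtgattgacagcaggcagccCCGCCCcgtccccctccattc
Col4a5 (chrX:141475169-141475384, plus strand): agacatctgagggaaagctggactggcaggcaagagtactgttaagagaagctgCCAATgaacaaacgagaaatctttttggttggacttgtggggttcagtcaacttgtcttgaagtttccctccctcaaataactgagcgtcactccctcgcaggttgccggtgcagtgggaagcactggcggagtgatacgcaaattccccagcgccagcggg

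In the RefSeq table, 35 of the collagen genes had an entry. Over the 250 bases before the start and on both strands, the GC box letters occurred in 21 of these 35 genes and in 32.7% of all 32851 promoters of the table. CCAAT occurred in 13 of 35 genes and in 33.8% of promoters, TATAAA in 5 genes and 12.4% of promoters, and TGTTCT, part of the progesterone receptor motif, in 2 genes, Col20a1 and Col9a1, and 16.1% of promoters. A core motif of CTCF, written CCA, any 2 bases, AG, any 2 bases and GGC, was found in 0 of 35 genes and in 2.07% of promoters. Matches of different motifs may overlap and were each counted, and a match describes the letters only.

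Depth, inferred from the smallest steps between low values, was 45.0 to 100.6 M reads in the mixed batch and 29.9 to 57.1 M reads in the vehicle-only batch. Ctcf was 9.04 to 10.9 RPKM in cKO P4 and 25.1 to 27.5 RPKM in floxed P4 libraries, and 10.1 to 13.1 RPKM in cKO vehicle and 23.0 to 30.6 RPKM in floxed vehicle libraries, with exact two-sided permutation p of 0.0286 and 0.000155. Uterine markers were high in every library: summed over the list, 7 smooth muscle genes gave at least 1238 RPKM, 7 stromal genes at least 592 RPKM and 5 simple epithelial genes at least 188 RPKM. Libraries stood apart by markers of other tissue. Squamous keratin genes summed to 66.0 RPKM in cKO vehicle library 9 and 18.2 RPKM in cKO P4 library 8. The next highest sum was 13.8 RPKM in cKO vehicle library 5, and floxed libraries reached at most 12.1 RPKM. The oviduct gene Ovgp1 was highest in cKO vehicle library 12 (191 RPKM), floxed P4 library 7 (380 RPKM) and floxed vehicle library 3 (146 RPKM). These 3 libraries and the 2 with the highest squamous sums, all of the mixed batch, are the 5 libraries left out together below. Every vehicle-only library held Ovgp1 too, at 16.8 to 60.2 RPKM, and the other mixed batch libraries at most 0.156 RPKM, with values below 0 set to 0. Fat markers ranged widely within every group. Whether every library is its own animal is not stated in the labels, and p-values then cover the spread between these samples, which may be technical. In a whole uterus, fewer cells of a type and less RNA per cell cannot be told apart.

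The most abundant chains, per length, were those of types III, I, VI and IV. Mean levels in floxed vehicle uteri were 463 ± 39.7 RPKM for Col3a1, 342 ± 35.5 RPKM for Col1a1, 320 ± 31.7 RPKM for Col1a2 and 250 ± 14.5 RPKM for Col6a1 (SD, n = 8). Col6a2 at 164 ± 19.4 RPKM, Col4a1 at 137 ± 14.9 RPKM and Col4a2 at 124 ± 15.1 RPKM followed (SD, n = 8). The ranges of Col1a1 and Col1a2 overlapped, as did those of Col4a1 and Col4a2. The ratios of 2 partner pairs varied little among libraries: Col1a1 over Col1a2, whose products join in type I collagen, ran from 0.947 to 1.31 over the 24 libraries, and Col4a1 over Col4a2 from 1.04 to 1.22. The GENCODE models of Col4a1 and Col4a2 overlap by 22 bases head to head, and the sources used here do not say how reads there were assigned.

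Of the 44 chains, 36 reached 1 RPKM in at least 4 libraries and were tested. The 8 that did not were Col2a1, Col11a2 and Col24a1 (fibrillar), Col10a1 (network), Col9a1 and Col19a1 (FACIT), Col25a1 (transmembrane) and Col28a1. Type II chain Col2a1, type X chain Col10a1 and Col9a1, known from cartilage, stayed at or under 0.320 RPKM in every library. Col11a2 lay between 0.524 and 0.676 RPKM in cKO P4 against 0.258 and 0.423 RPKM in floxed P4 libraries, and between 0.460 and 0.876 RPKM in cKO vehicle against 0.193 and 0.492 RPKM in floxed vehicle libraries. Col25a1 lay between 0.0123 and 0.259 RPKM in cKO P4, 0.140 and 0.715 RPKM in cKO vehicle, 0.0260 and 0.293 RPKM in floxed P4 and 0.652 and 1.33 RPKM in floxed vehicle libraries. Col24a1 lay between 0.557 and 1.42 RPKM in cKO P4, 0.311 and 0.744 RPKM in cKO vehicle, 0.778 and 1.24 RPKM in floxed P4 and 0.248 and 0.699 RPKM in floxed vehicle libraries. Col19a1 did not exceed 0.0269 RPKM, and Col28a1 did not exceed 1.32 RPKM. Near 0 the batch correction weighs on these levels, and 7 of the 1056 collagen values lie below 0.

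**Figure D1:**
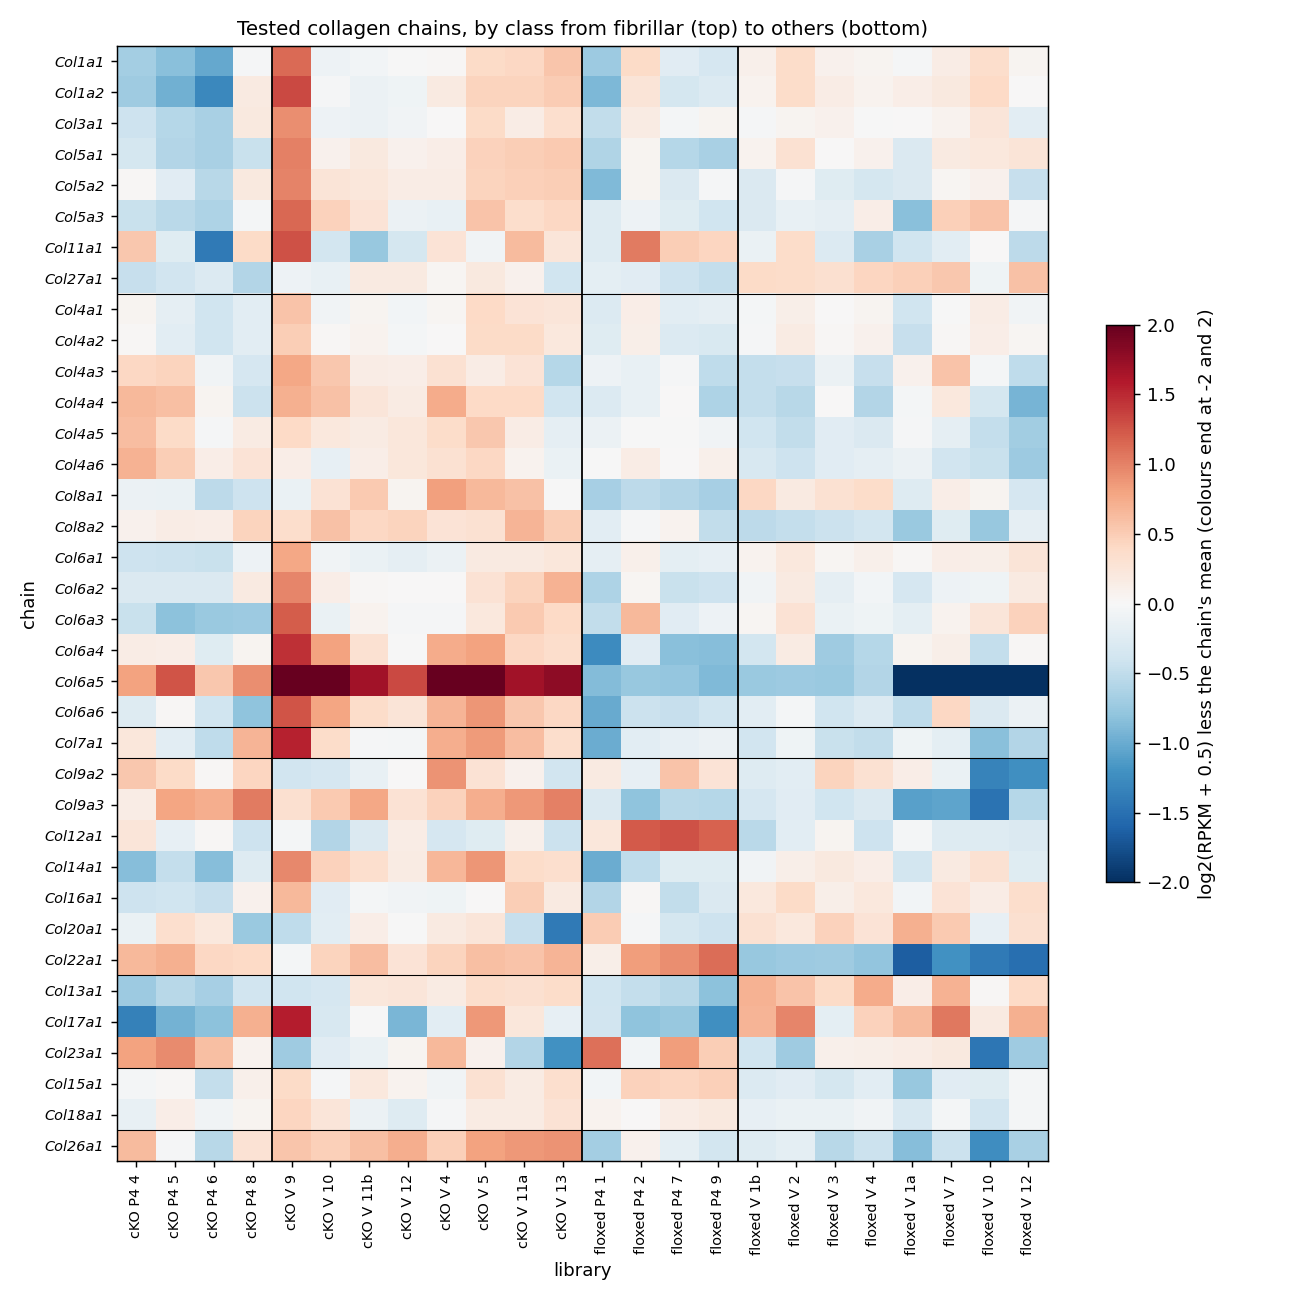
Level of the 36 tested chains (rows, by class) in the 24 libraries (columns, by group), as log2(RPKM + 0.5) less the chain's mean over all libraries, with red above and blue below that mean. Col6a5 is above its mean in every cKO library and below it in every floxed library, Col12a1 is high in floxed P4 libraries 2, 7 and 9, and cKO vehicle library 9 is high for most fibrillar and beaded filament chains.

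Without added hormone, most of the collagen chains called between genotypes were higher in cKO uteri. Of 36 tested chains, 16 were higher and 2 lower in cKO vehicle than in floxed vehicle uteri, with a median log2 fold change of 0.31. Over all 14284 tested genes 24.6% were called, 13.1% higher and 11.5% lower, with a median of −0.01. The test was limma on log2(RPKM + 0.5) with Benjamini-Hochberg adjustment at 0.05. The chains called higher were 4 of 6 beaded filament, 4 of 8 network, 3 of 7 FACIT and 1 of 8 fibrillar chains, the single anchoring fibril chain, both multiplexins and Col26a1. The 3 tested transmembrane chains were not called by limma, and 1 of them was lower at an unadjusted p under 0.05. Left without cKO vehicle library 9, the comparison called 15 chains. Within the mixed batch alone the calls of Col5a2, Col6a2, Col7a1, Col14a1, Col18a1 and Col20a1 were lost, and the vehicle-only batch alone called 8 chains.

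The type VI replacement chains Col6a4, Col6a5 and Col6a6 were all higher in cKO vehicle uteri, and Col6a5 had the highest fold change of any chain. Col6a5 was 11.2, 17.7 and 27.0 RPKM (lowest, median and highest) in the 8 cKO vehicle libraries, against −0.923, 1.12 and 2.59 RPKM in the 8 floxed vehicle libraries. The groups did not overlap, and the log2 fold change was 3.90 ± 0.32 (SE, limma adjusted p = 6.22e-09). Its size depends on the batch: the 4 floxed vehicle libraries of the mixed batch lay between 2.28 and 2.59 RPKM and the 4 of the vehicle-only batch below 0, where values were set to 0, so the log2 difference was 2.53 within the mixed and 5.26 within the vehicle-only batch. On the RPKM scale, which the correction leaves intact within a batch, cKO exceeded floxed by 14.1 and 19.6 RPKM. Its neighbours changed less. Col6a6 was 11.7, 15.1 and 23.8 RPKM in cKO vehicle against 6.68, 8.10 and 13.1 RPKM in floxed vehicle libraries, with a log2 fold change of 0.83 ± 0.15 (limma adjusted p = 0.000216) and overlapping ranges. Col6a4 was 68.0, 104 and 189 RPKM in cKO vehicle against 41.8, 61.3 and 77.0 RPKM in floxed vehicle libraries, with a log2 fold change of 0.83 ± 0.18 (limma adjusted p = 0.00144), again with overlap.

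The common type VI chains did not follow as a block. Col6a1 was 202, 240 and 395 RPKM in cKO vehicle against 235, 248 and 275 RPKM in floxed vehicle libraries, the floxed range lying within the cKO range, and its log2 fold change was −0.01 ± 0.11 (limma adjusted p = 0.952). Col6a3 had a log2 fold change of 0.19 ± 0.17 and did not pass. Col6a2 passed with 0.38 ± 0.13 (limma adjusted p = 0.0414), but its call was lost when any of cKO vehicle libraries 5, 9, 11a and 13 or floxed vehicle libraries 1a, 1b, 3, 4, 7 and 10 was left out, and without cKO vehicle library 9 its log2 fold change was 0.28 (adjusted p = 0.0949). The ratio of Col6a1 to Col6a2, whose products join in the same protein and whose genes lie 85.2 kb apart on chromosome 10, separated the genotypes in both treatments: it was 1.11 to 1.23 in cKO P4 against 1.42 to 1.83 in floxed P4 libraries, and 0.984 to 1.25 in cKO vehicle against 1.40 to 1.73 in floxed vehicle libraries. This ratio was not tested.

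Among network chains the minor type IV chains and Col8a2 were higher in cKO vehicle uteri, and the principal pair was not called. Col8a2, a short-chain collagen known from the membranes of the cornea and of vessels, was 8.68, 9.70 and 11.6 RPKM in cKO vehicle against 4.01, 5.05 and 6.23 RPKM in floxed vehicle libraries. The groups did not overlap, and the log2 fold change was 0.91 ± 0.09 (limma adjusted p = 1.58e-07), with 0.90 in the mixed and 0.91 in the vehicle-only batch. Of the chromosome X pair, Col4a5 was 35.1, 46.6 and 58.2 RPKM in cKO vehicle against 24.4, 31.5 and 39.3 RPKM in floxed vehicle libraries (log2 fold change 0.58 ± 0.10, limma adjusted p = 0.000181), and Col4a6 was 20.6, 25.5 and 31.2 RPKM against 13.7, 18.0 and 21.2 RPKM (0.48 ± 0.10, limma adjusted p = 0.000589). Both pairs of ranges overlapped. Col4a4, a chain known from kidney and other specialised basement membranes, had a log2 fold change of 0.70 ± 0.18 (limma adjusted p = 0.0073), and its head-to-head neighbour Col4a3, 71 bases away on chromosome 1, had 0.40 ± 0.18 and did not pass. Col4a1 was 132, 154 and 207 RPKM in cKO vehicle against 105, 139 and 154 RPKM in floxed vehicle libraries (0.21 ± 0.10, limma adjusted p = 0.142), and Col4a2 was 120, 135 and 173 RPKM against 89.1, 126 and 139 RPKM (0.19 ± 0.10, limma adjusted p = 0.168). The ranges of both overlapped, and neither passed.

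Of 8 fibrillar chains 1 was higher and 1 lower in cKO vehicle uteri, 25% against 24.6% of all tested genes, and at an unadjusted p under 0.05 limma gave 3 higher and 1 lower. Col1a1 was 285, 356 and 673 RPKM in cKO vehicle against 304, 329 and 399 RPKM in floxed vehicle libraries, Col1a2 was 260, 352 and 706 RPKM against 284, 312 and 371 RPKM, and Col3a1 was 417, 476 and 860 RPKM against 391, 463 and 533 RPKM. In each of these chains the ranges overlapped, the highest value was that of cKO vehicle library 9, and the log2 fold changes were 0.14 ± 0.17, 0.16 ± 0.20 and 0.16 ± 0.14 (limma adjusted p = 0.612, 0.629 and 0.464). Col5a2, a type V chain, passed with 0.59 ± 0.14 (limma adjusted p = 0.00333), from 60.3, 69.8 and 109 RPKM in cKO vehicle against 39.3, 45.3 and 57.9 RPKM in floxed vehicle libraries, with no overlap. Its neighbour Col3a1, 24.6 kb away on chromosome 1, and the other type V chains Col5a1 (0.27 ± 0.13) and Col5a3 (0.41 ± 0.18) did not pass. Col27a1, a minor fibrillar chain, fell by 0.37 ± 0.10 on the log2 scale in cKO vehicle uteri (limma adjusted p = 0.00525).

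Of the FACIT chains, Col22a1, known from tissue junctions such as that of muscle and tendon, was 1.08, 1.81 and 2.10 RPKM in cKO vehicle against 0.0154, 0.324 and 0.489 RPKM in floxed vehicle libraries. The groups did not overlap, and the log2 fold change was 1.54 ± 0.16 (limma adjusted p = 1.09e-07), 1.06 within the mixed batch and 2.02 within the vehicle-only batch. Col9a3, a type IX chain known from cartilage, was 1.42, 1.93 and 2.66 RPKM in cKO vehicle against 0.0627, 0.622 and 0.841 RPKM in floxed vehicle libraries, without overlap (1.30 ± 0.17, limma adjusted p = 4.09e-06), with 0.79 within the mixed and 1.81 within the vehicle-only batch. No floxed library reached 1 RPKM of Col9a3, so it entered the test only through the genotype in which it was called higher. Col14a1, which binds type I fibrils, rose by 0.49 ± 0.14 (limma adjusted p = 0.0099). Col20a1 was called lower (−0.58 ± 0.21, limma adjusted p = 0.0436), a call that was lost when any of cKO vehicle libraries 9, 10, 11a and 13 or floxed vehicle libraries 1a, 1b, 2, 3, 4, 7 and 12 was left out, with adjusted p up to 0.0901. Col12a1 was not called (0.04 ± 0.14, limma adjusted p = 0.892).

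Col26a1, which encodes a collagen first described in testis and ovary, was 9.44, 10.9 and 12.8 RPKM in cKO vehicle against 2.52, 4.61 and 5.77 RPKM in floxed vehicle libraries. The groups did not overlap, and the log2 fold change was 1.25 ± 0.15 (limma adjusted p = 1.88e-06). Col7a1, which forms the anchoring fibrils under stratified epithelium, was 9.97, 14.6 and 30.7 RPKM in cKO vehicle against 5.53, 7.54 and 9.62 RPKM in floxed vehicle libraries, without overlap (0.94 ± 0.21, limma adjusted p = 0.00148). The multiplexins Col15a1 and Col18a1, the second of which is the source of endostatin, rose by 0.47 ± 0.11 (limma adjusted p = 0.00212) and 0.27 ± 0.08 (limma adjusted p = 0.0217). The call of Col18a1 was lost without cKO vehicle library 9 (0.22, adjusted p = 0.0529).

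Some markers of cell types were called between genotypes too. All 5 leukocyte markers were called higher in cKO uteri after either treatment, and their summed level was 66.7 to 158 RPKM in cKO P4 against 42.7 to 66.5 RPKM in floxed P4 libraries, and 82.3 to 134 RPKM in cKO vehicle against 41.2 to 59.8 RPKM in floxed vehicle libraries. After vehicle, 4 of 7 stromal, 4 of 5 simple epithelial, 2 of 4 skeletal muscle and 1 of 4 pericyte markers were called lower. Of mesothelial markers 2 of 4 and of endothelial markers 2 of 6 were called higher. Of 7 smooth muscle markers 0 were called by limma, or passed an unadjusted p of 0.05. Over all tested genes 13.1% were called higher and 11.5% lower after vehicle (24.6% in either direction), against 33.3% of endothelial markers higher and 25% of pericyte markers lower. Endothelial markers summed to 242.5 to 271.6 RPKM in cKO P4 against 210 to 236.4 RPKM in floxed P4 libraries, without overlap. After vehicle they summed to 232.4 to 325.4 RPKM in cKO against 195.4 to 235.4 RPKM in floxed libraries, with overlap. After progesterone 12.3% of all tested genes were called higher. The summed stromal level was 592 to 898 RPKM in cKO vehicle against 703 to 838 RPKM in floxed vehicle libraries. The part of these cells in the collagen differences was not tested.

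**Figure D2:**
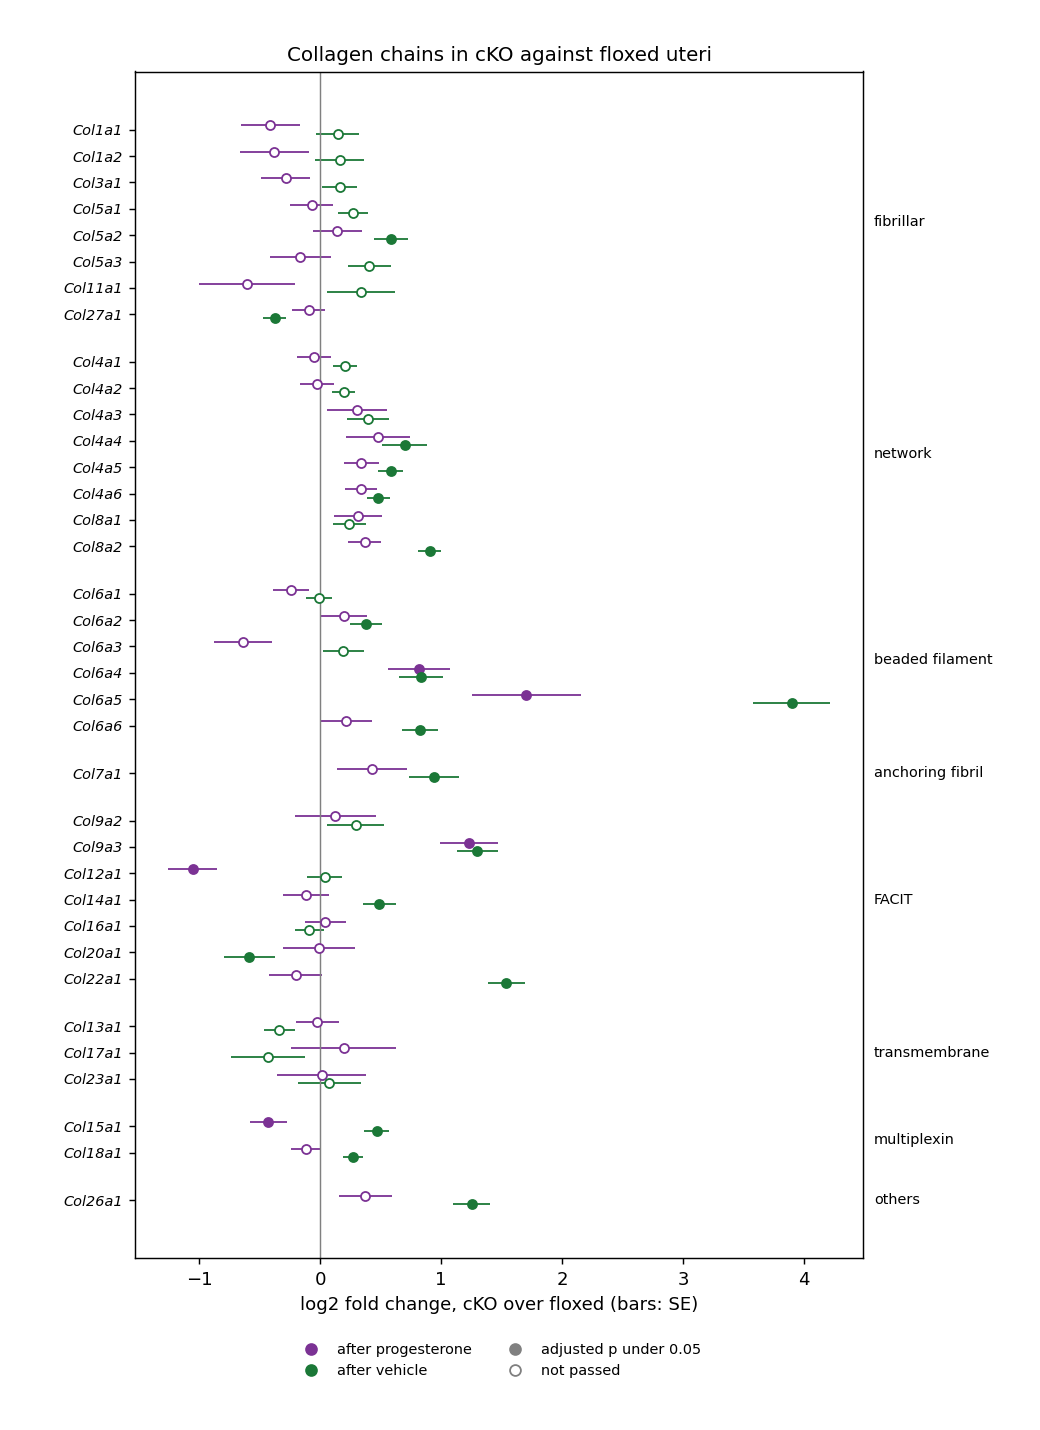
Log2 fold change of cKO over floxed uteri for the 36 tested chains, by class, after progesterone (purple) and after vehicle (green), with bars for the SE and filled points for an adjusted p under 0.05. Col6a4, Col6a5 and Col9a3 are filled to the right of 0 in both treatments, Col12a1 is filled to the left after progesterone only, and Col15a1 is filled on the left after progesterone and on the right after vehicle.

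After progesterone fewer chains differed between genotypes: 3 of 36 were higher and 2 lower in cKO P4 than in floxed P4 uteri, where 12.3% of all tested genes were called higher and 7.06% lower (19.4% in either direction). Of all genes called, 63.5% were higher, and 52.7% after quantile normalization, which left the 3 and 2 chain calls in number. The median log2 fold change of the chains was 0.00, against 0.03 over all tested genes. Groups of 4 libraries stand behind this comparison. No fibrillar or network chain was called by limma, and at an unadjusted p under 0.05 it gave 0 fibrillar and 3 network chains, all 3 higher in cKO P4 uteri. Left without single libraries, the count ran from 3 to 6, with 3 without cKO P4 library 4, cKO P4 library 5 or floxed P4 library 9.

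Col6a5, Col6a4 and Col9a3 were higher in cKO P4 uteri, as they were after vehicle. Col6a5 was 7.64, 10.7, 6.29 and 8.36 RPKM in the cKO P4 libraries, against 2.06, 2.25, 2.23 and 2.02 RPKM in the floxed P4 libraries. All 4 cKO values lay above all 4 floxed values, and the log2 fold change was 1.70 ± 0.45 (limma adjusted p = 0.00987). The call was lost with a pseudocount of 0.1 (1.87, adjusted p = 0.0927) and on untransformed RPKM (adjusted p = 0.0523), and within the mixed batch alone it held (adjusted p = 3.7e-06). Col9a3 was 1.24, 2.20, 2.09 and 2.71 RPKM in cKO P4 against 0.782, 0.400, 0.569 and 0.551 RPKM in floxed P4 libraries, also without overlap (1.23 ± 0.24, limma adjusted p = 0.000813). This chain passed the filter of 1 RPKM through cKO libraries only. Col6a4 was 76.2, 75.7, 57.7 and 71.3 RPKM in cKO P4 against 28.4, 58.4, 38.4 and 37.7 RPKM in floxed P4 libraries, where floxed P4 library 2 reached into the cKO range (0.82 ± 0.26, limma adjusted p = 0.0274). The Col6a4 call was lost when any of cKO P4 libraries 4, 5 and 8 or floxed P4 libraries 1, 7 and 9 was left out, with 0.66 without floxed P4 library 1 (adjusted p = 0.0917). Col6a6, between whose gene and Col6a4 that of Col6a5 lies, had 0.22 ± 0.21 and did not pass. Col8a2 was 7.58, 7.88, 7.86 and 9.82 RPKM in cKO P4 against 6.06, 6.96, 7.49 and 4.92 RPKM in floxed P4 libraries. These groups did not overlap, but the log2 fold change of 0.37 ± 0.13 did not pass (limma adjusted p = 0.0565) unless, among others, floxed P4 library 7 was left out (0.44, adjusted p = 0.0326).

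Col12a1, a FACIT chain on type I fibrils, was lower in cKO P4 uteri. It was 8.22, 6.10, 6.95 and 5.04 RPKM in the cKO P4 libraries, against 8.09, 16.7, 17.4 and 16.3 RPKM in the floxed P4 libraries. Floxed P4 library 1 lay within the cKO range and the other 3 well above it, and the log2 fold change was −1.05 ± 0.20 (limma adjusted p = 0.000631). Col15a1 was 104, 108, 76.1 and 115 RPKM in cKO P4 against 103, 147, 143 and 148 RPKM in floxed P4 libraries, again with floxed P4 library 1 in the cKO range. Its difference of −0.43 ± 0.15 passed narrowly (limma adjusted p = 0.0483) and was lost under 20 of 36 alternatives, among them leaving out any of cKO P4 libraries 4, 5 and 6 or floxed P4 libraries 2, 7 and 9, with −0.30 without cKO P4 library 6 (adjusted p = 0.176), and any of 10 of the 16 vehicle libraries.

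**Figure D3:**
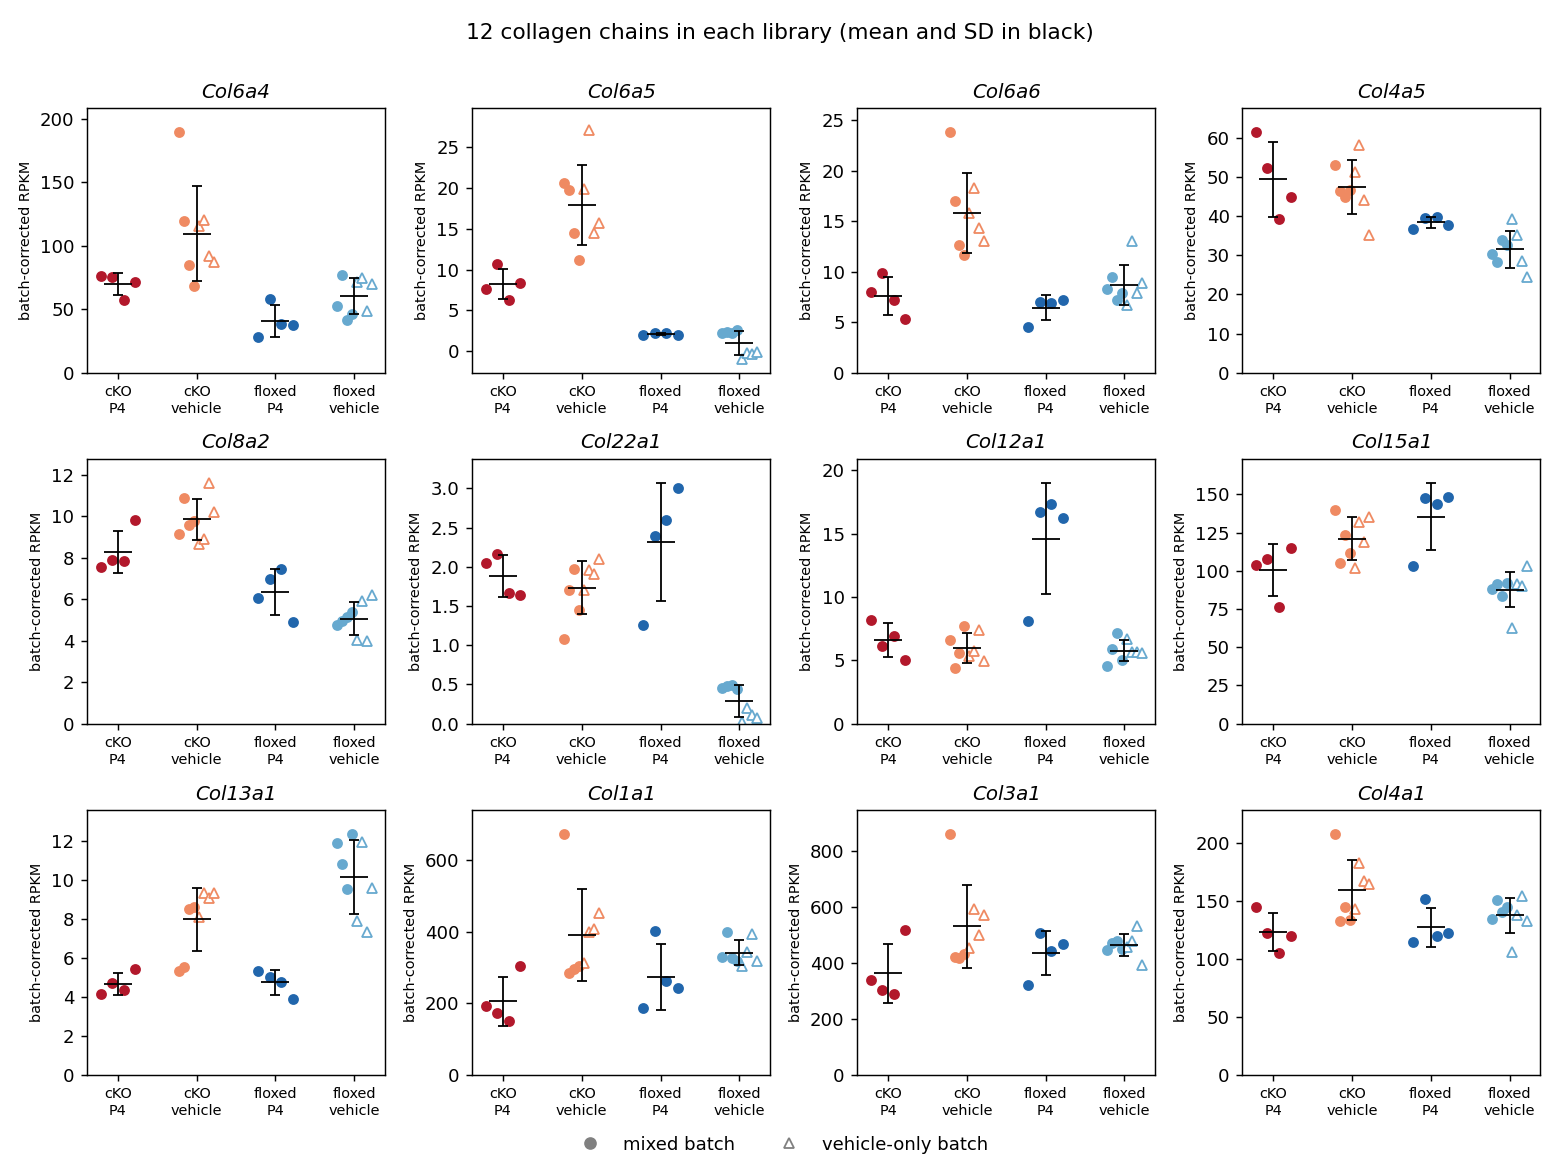
Batch-corrected RPKM of 12 chains in each library, by group, with filled circles for the mixed batch, open triangles for the vehicle-only batch, and the mean and SD of the group in black. Col6a5 and Col8a2 lie higher in cKO than in floxed uteri after either treatment (Col8a2 was not called after progesterone), Col12a1 and Col15a1 are high in floxed P4 libraries other than library 1, and in floxed vehicle uteri Col6a5 and Col22a1 differ between batches.

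In floxed uteri 6 h of progesterone changed 11 of 36 chains, 4 higher and 7 lower than after vehicle. Over all tested genes 23.0% were called, 7.84% higher and 15.1% lower, and the median log2 fold change was −0.10 for the chains and −0.06 for all tested genes. Of all genes called, 34.1% were higher, and 46.4% after quantile normalization, which called 4 chains higher and 6 lower. The chains that rose were the FACIT chains Col12a1 and Col22a1, the multiplexin Col15a1 and the network chain Col4a6. Those that fell were the fibrillar chains Col5a1 and Col27a1, the transmembrane chains Col13a1 and Col17a1, the FACIT chains Col14a1 and Col16a1, and Col8a1. Every progesterone library belongs to the mixed batch, and the vehicle libraries come from both. Without single libraries the count ran from 8 to 12.

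Col22a1 was 1.25, 2.39, 2.60 and 3.01 RPKM in the floxed P4 libraries, against 0.0154, 0.324 and 0.489 RPKM (lowest, median, highest) in the floxed vehicle libraries. The groups did not overlap, and the log2 fold change was 1.73 ± 0.21 (limma adjusted p = 2.65e-06). Col12a1, at 8.09, 16.7, 17.4 and 16.3 RPKM in floxed P4 against 4.58, 5.66 and 7.19 RPKM in floxed vehicle libraries, did not overlap either (1.23 ± 0.19, limma adjusted p = 5.97e-05). Col15a1 rose by 0.61 ± 0.14 (limma adjusted p = 0.00298). Col4a6 rose by 0.40 ± 0.13 (limma adjusted p = 0.0237), a call lost without floxed P4 library 2 (0.38, adjusted p = 0.0634) or floxed P4 library 9 (0.39, adjusted p = 0.0632), and Col4a5 had 0.29 ± 0.14 and did not pass.

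Col13a1, a transmembrane collagen known from cell adhesion sites and the nerve-muscle synapse, was 5.33, 5.04, 4.76 and 3.88 RPKM in floxed P4 against 7.34, 10.2 and 12.4 RPKM in floxed vehicle libraries, without overlap (−0.99 ± 0.17, limma adjusted p = 0.000169). Col27a1 was 4.88, 4.76, 4.13 and 3.94 RPKM in floxed P4 against 5.31, 7.67 and 8.74 RPKM in floxed vehicle libraries, also without overlap (−0.72 ± 0.13, limma adjusted p = 0.000257). Col8a1 was at most 1.07 RPKM in every floxed P4 library and at least 1.28 RPKM in every floxed vehicle library, and fell by 0.74 ± 0.18 on the log2 scale (limma adjusted p = 0.00553). Col17a1, the collagen of hemidesmosomes in basal epithelium, fell by 1.29 ± 0.40 (limma adjusted p = 0.0235), a call lost without floxed P4 library 9 (−1.15, adjusted p = 0.082) or floxed vehicle library 2 (−1.18, adjusted p = 0.0536).

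The remaining falls in floxed uteri rested on few libraries. Col5a1 fell by 0.53 ± 0.17 (limma adjusted p = 0.0236), lost when any of floxed P4 libraries 1, 7 and 9 or floxed vehicle library 2 was left out, with adjusted p up to 0.0863. Col16a1 fell by 0.54 ± 0.16 (limma adjusted p = 0.0179), lost without floxed P4 library 1 (−0.45, adjusted p = 0.065) or 7 (−0.48, adjusted p = 0.06). Col14a1 fell by 0.54 ± 0.18 (limma adjusted p = 0.0333), lost without any of floxed P4 libraries 1 and 2 or floxed vehicle libraries 2, 3 and 4, with −0.37 without floxed P4 library 1 (adjusted p = 0.146). The type I and type III chains did not pass: the log2 fold changes were −0.35 ± 0.23 for Col1a1, −0.46 ± 0.27 for Col1a2 and −0.09 ± 0.19 for Col3a1. Their 4 floxed P4 values were spread widely, with Col1a1 at 186, 403, 262 and 244 RPKM, lowest in library 1 and highest in library 2.

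In cKO uteri progesterone lowered 12 of 36 chains and raised 0, whereas of all tested genes 8.67% were called, 4.00% higher and 4.66% lower. The chains' median log2 fold change was −0.44, against −0.02 over all tested genes. At an unadjusted p under 0.05, limma gave 2 chains as higher, Col4a6 and Col23a1, and 20 as lower. The 12 were the fibrillar chains Col1a1, Col1a2, Col5a1, Col5a3 and Col27a1, the beaded filament chains Col6a3, Col6a5 and Col6a6, the network chain Col8a1, the FACIT chain Col14a1, the transmembrane chain Col13a1 and Col26a1. Without cKO P4 library 5 or without cKO P4 library 6 the count was 7, and it reached 13 without others.

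Col14a1 was 10.3, 13.4, 10.2 and 15.6 RPKM in the cKO P4 libraries, against 21.2, 25.4 and 37.0 RPKM (lowest, median, highest) in the cKO vehicle libraries. The groups did not overlap, and the log2 fold change was −1.14 ± 0.18 (limma adjusted p = 0.000317). Col5a1, at 46.4, 39.3, 37.3 and 43.2 RPKM in cKO P4 against 62.5, 74.4 and 119 RPKM in cKO vehicle libraries, did not overlap either (−0.87 ± 0.17, limma adjusted p = 0.0018). Of the type VI chains, Col6a6 was 8.04, 9.84, 7.25 and 5.31 RPKM in cKO P4 against 11.7, 15.1 and 23.8 RPKM in cKO vehicle libraries, without overlap (−0.99 ± 0.20, limma adjusted p = 0.00257). Col6a3 was 38.9, 30.1, 31.8 and 32.1 RPKM in cKO P4 against 48.6, 58.9 and 124 RPKM in cKO vehicle libraries, without overlap (−0.93 ± 0.22, limma adjusted p = 0.0103), a call lost without the 5 libraries with oviduct or squamous markers (−0.73, adjusted p = 0.101). Col6a5 fell by 1.63 ± 0.42 on the log2 scale (limma adjusted p = 0.0174), and its cKO P4 and cKO vehicle values, given above, did not overlap. Within the mixed batch, which holds the progesterone libraries, the log2 fold change was −0.94 (adjusted p = 0.00253). The call was lost with a pseudocount of 0.1 (adjusted p = 0.0624) and with no batch term (−1.05, adjusted p = 0.164).

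The type I chains were lower in cKO P4 uteri, with cKO P4 library 8 apart from the other 3. Col1a1 was 193, 173, 150 and 304 RPKM in cKO P4 against 285, 356 and 673 RPKM in cKO vehicle libraries, where library 8 alone reached the vehicle range (−0.90 ± 0.23, limma adjusted p = 0.0156). Col1a2 was 172, 144, 115 and 321 RPKM in cKO P4 against 260, 352 and 706 RPKM in cKO vehicle libraries (−0.99 ± 0.27, limma adjusted p = 0.0222). Within the mixed batch alone neither passed (−0.87 for Col1a1 and −0.97 for Col1a2, adjusted p = 0.0696 and 0.0922). The Col1a1 call was lost without cKO P4 library 5 (−0.84, adjusted p = 0.0538) or 6 (−0.77, adjusted p = 0.0595), and the Col1a2 call without cKO P4 library 5 (−0.90, adjusted p = 0.0739) or 6 (−0.80, adjusted p = 0.088) or cKO vehicle library 9 (−0.76, adjusted p = 0.0541). Col3a1 was 339, 304, 288 and 517 RPKM in cKO P4 against 417, 476 and 860 RPKM in cKO vehicle libraries and did not pass (−0.53 ± 0.19, limma adjusted p = 0.0841). Library 8 also carried 18.2 RPKM of squamous keratin genes and 2088 RPKM of smooth muscle genes, and their part in these values was not tested. Mesothelial markers moved with progesterone as well: they summed to 47.4 to 61.2 RPKM in cKO P4 against 60.2 to 89.2 RPKM in cKO vehicle libraries, and to 31.8 to 49.8 RPKM in floxed P4 against 46.4 to 77.0 RPKM in floxed vehicle libraries. With limma 0 of 4 were called in cKO uteri, where all 4 were lower at an unadjusted p under 0.05, and 2 of 4 were called lower in floxed uteri. Stromal markers moved both ways, with 3 of 7 called higher and 1 lower in cKO uteri, and 2 higher and 1 lower in floxed uteri. Of 4 pericyte markers 0 were called by limma in cKO uteri, where 1 was lower at an unadjusted p under 0.05, and 2 were called lower in floxed uteri. Of 5 simple epithelial markers 1 was called higher in cKO uteri and 1 lower in floxed uteri, and of 3 tested squamous markers 1 was called higher in floxed uteri. Over all tested genes progesterone gave 4.00% higher and 4.66% lower in cKO uteri, and 7.84% higher and 15.1% lower in floxed uteri. The part of these cells in the collagen differences with progesterone was not tested.

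The basement membrane pair showed smaller values. Col4a1 was 145, 122, 105 and 120 RPKM in cKO P4 against 132, 154 and 207 RPKM in cKO vehicle libraries (−0.37 ± 0.13, limma adjusted p = 0.0849), and Col4a2 had −0.39 ± 0.13 (limma adjusted p = 0.0628). Col6a1 was 172, 171, 169 and 215 RPKM in cKO P4 against 202, 240 and 395 RPKM in cKO vehicle libraries, overlapping through library 8 (−0.44 ± 0.14, limma adjusted p = 0.054). Col13a1, called lower in floxed uteri as well, fell by 0.68 ± 0.17 (limma adjusted p = 0.0126) in cKO uteri. The other calls were less firm. Col8a1 fell by 0.66 ± 0.18 (limma adjusted p = 0.0246), lost without cKO P4 library 6 or 8 or cKO vehicle library 11b, with adjusted p up to 0.0743. Col27a1 fell by 0.44 ± 0.13 (limma adjusted p = 0.0312), lost without any of cKO P4 libraries 4, 5 and 8 or cKO vehicle libraries 11b and 12, with adjusted p up to 0.0995. Col5a3 (−0.77 ± 0.24, limma adjusted p = 0.0442) and Col26a1 (−0.66 ± 0.20, limma adjusted p = 0.0472) were lost under 19 and 23 of 36 alternatives, most of them the omission of 1 library, with adjusted p up to 0.112 and 0.192 when 1 library was left out.

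**Figure D4:**
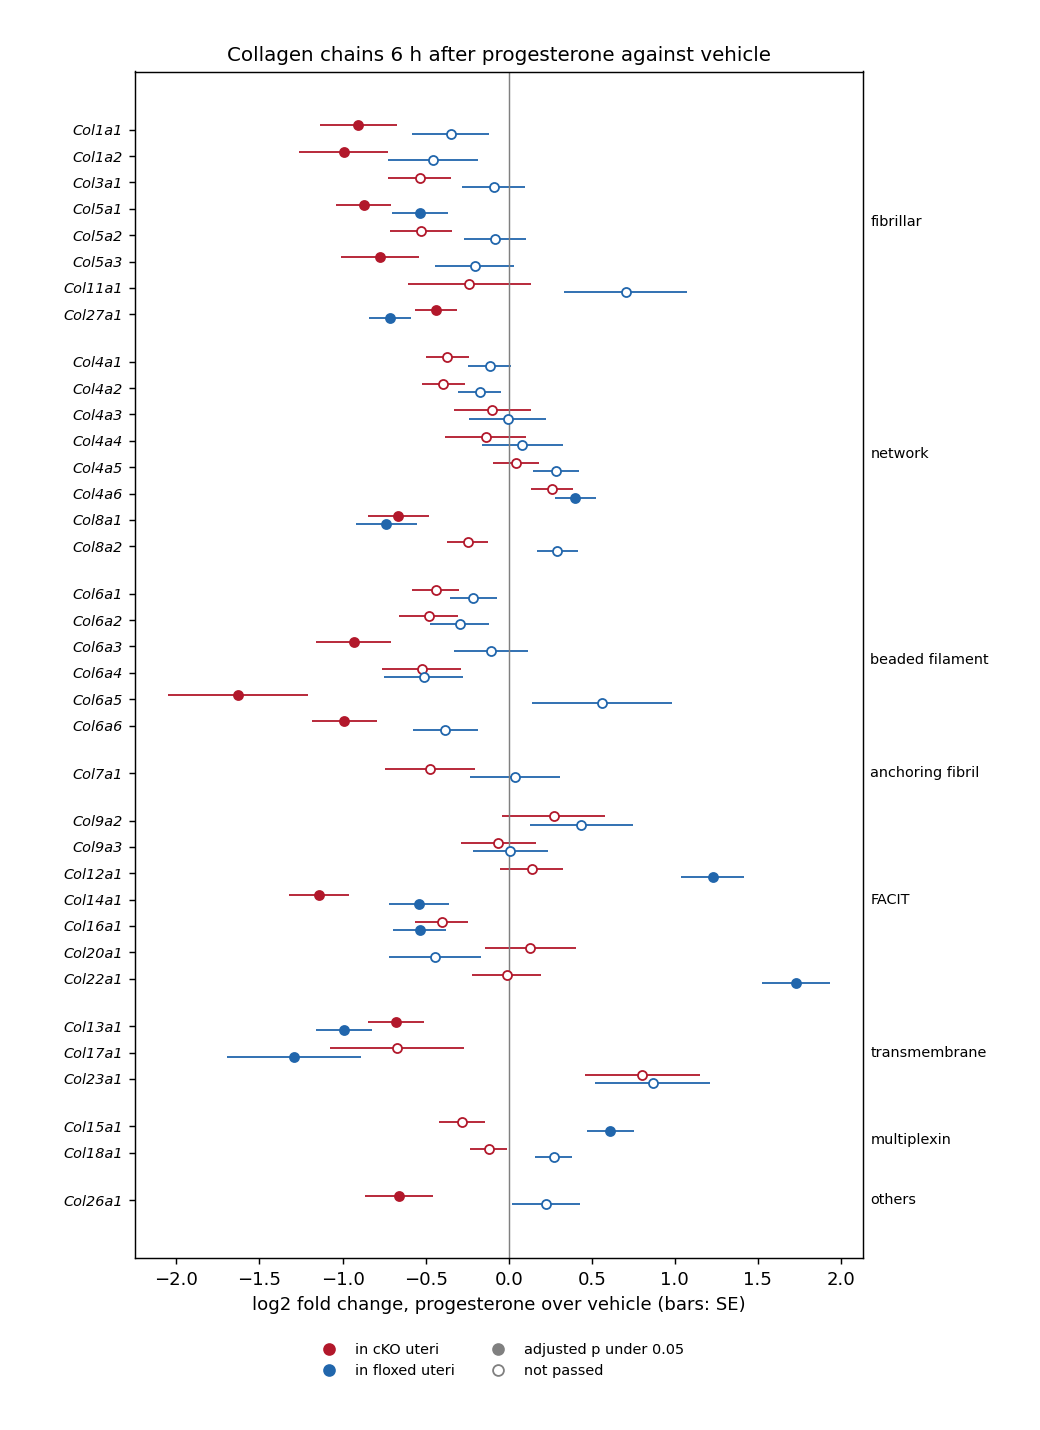
Log2 fold change of progesterone over vehicle for the 36 tested chains, by class, in cKO uteri (red) and floxed uteri (blue), with bars for the SE and filled points for an adjusted p under 0.05. Filled red points all lie left of 0, and Col12a1, Col15a1 and Col22a1 are filled to the right of 0 in floxed uteri only.

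Whether the response to progesterone differed between genotypes was tested as the difference of the log2 fold changes, cKO minus floxed. It was called for 4 of 36 chains, all negative, where 2.49% of all tested genes were called, 1.46% positive and 1.03% negative. The median difference was −0.30 for the chains and 0.03 for all tested genes. Col22a1 had −0.01 ± 0.21 in cKO and 1.73 ± 0.21 in floxed uteri, a difference of −1.74 ± 0.27 (limma adjusted p = 0.000544). Its size depends on low values: over the alternatives on the log2 scale it ran from −2.69 to −1.26. Floxed vehicle values were 0.444 to 0.489 RPKM in the mixed batch, which holds the progesterone libraries, and 0.0154 to 0.204 RPKM in the vehicle-only batch. The call held within the mixed batch alone. Col22a1 was 2.05, 2.16, 1.66 and 1.64 RPKM in cKO P4, 1.08 to 2.10 RPKM in cKO vehicle and 1.25 to 3.01 RPKM in floxed P4 libraries, so that the floxed vehicle libraries, at most 0.489 RPKM, were the single low group. The genotype comparison after vehicle and the progesterone comparison in floxed uteri share those floxed vehicle libraries.

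Col12a1 had 0.14 ± 0.19 in cKO and 1.23 ± 0.19 in floxed uteri, a difference of −1.09 ± 0.25 (limma adjusted p = 0.016), with the floxed P4 libraries as the single high group. Its cKO values were 5.04 to 8.22 RPKM after progesterone and 4.42 to 7.70 RPKM after vehicle, and these ranges overlapped. Col15a1 had −0.28 ± 0.14 in cKO and 0.61 ± 0.14 in floxed uteri, a difference of −0.89 ± 0.18 (limma adjusted p = 0.00786), and its cKO vehicle values of 102, 121 and 140 RPKM lay above most floxed vehicle values of 62.5, 90.5 and 103 RPKM. Col6a5 had −1.63 ± 0.42 in cKO and 0.56 ± 0.42 in floxed uteri, a difference of −2.19 ± 0.55 (limma adjusted p = 0.0327). That call was lost when any of the 4 cKO P4 libraries, floxed P4 libraries 2, 7 and 9 or floxed vehicle library 7 was left out (adjusted p up to 0.0698), and within the mixed batch alone, where no floxed value was below 0, the difference was −0.83 (adjusted p = 0.0749), and the response in floxed uteri was −0.12 in place of 0.56. Within that batch the difference of Col12a1 was −1.14 (adjusted p = 0.0695). Without the 5 libraries with oviduct or squamous markers, it was −0.82 for Col12a1 (adjusted p = 0.155) and −0.90 for Col15a1 (adjusted p = 0.0501).

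Summed over a class, the fibrillar chains gave 644, 776 and 1271 RPKM (lowest, median, highest) in cKO P4, 1132, 1359 and 2516 RPKM in cKO vehicle, 749, 1044 and 1391 RPKM in floxed P4, and 1132, 1227 and 1457 RPKM in floxed vehicle libraries. The network sum was 281, 327 and 392 RPKM in cKO P4, 350, 377 and 486 RPKM in cKO vehicle, 294, 299 and 367 RPKM in floxed P4, and 270, 335 and 348 RPKM in floxed vehicle libraries. The beaded filament sum was 412, 440 and 526 RPKM in cKO P4, 517, 650 and 1087 RPKM in cKO vehicle, 388, 425 and 572 RPKM in floxed P4, and 486, 526 and 620 RPKM in floxed vehicle libraries. The medians of the fibrillar, network and beaded filament sums were lower after progesterone than after vehicle in both genotypes. The network sum of every cKO vehicle library lay above that of every floxed vehicle library, narrowly, and the other ranges overlapped between genotypes. These sums were not tested.

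**Figure D5:**
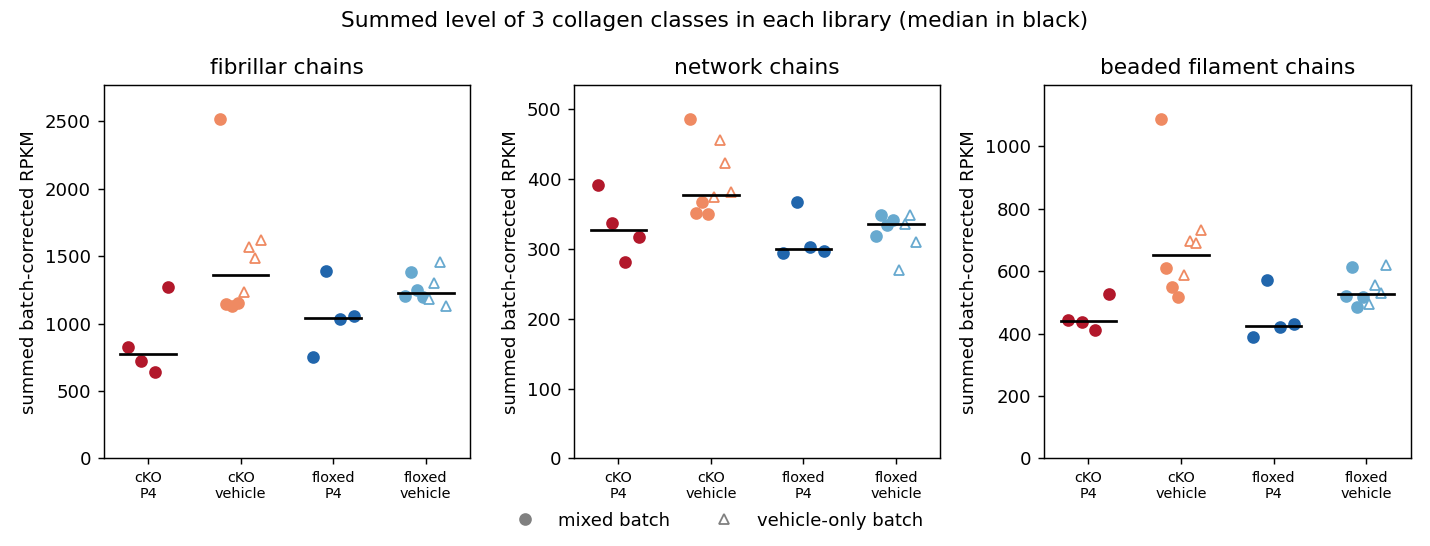
Summed batch-corrected RPKM of the fibrillar, network and beaded filament chains in each library, by group, with filled circles for the mixed batch, open triangles for the vehicle-only batch and the group median as a black line. In cKO vehicle uteri 1 library, number 9, stands at 2516 RPKM for the fibrillar and 1087 RPKM for the beaded filament sum.

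Genes that make, join, bind and break down collagen were counted from 4 lists. Of 22 tested genes for hydroxylation, folding and secretion, 7 were higher and 1 lower in cKO vehicle than in floxed vehicle uteri, 36.4% against 24.6% of all tested genes. P3h2, a prolyl 3-hydroxylase, rose by 0.82 ± 0.12 (limma adjusted p = 1.39e-05), Plod2, the lysyl hydroxylase that prepares cross-links of fibrils, by 0.76 ± 0.11 (limma adjusted p = 2.3e-05), P4ha2, a prolyl 4-hydroxylase subunit, by 0.67 ± 0.14 (limma adjusted p = 0.000813), and Colgalt2, a collagen galactosyltransferase, by 0.38 ± 0.08 (limma adjusted p = 0.0012). After progesterone 2 were higher and 1 lower in cKO uteri, 13.6% against 19.4% of all tested genes: P3h2 (0.91 ± 0.17) and Plod2 (0.86 ± 0.16) were again higher (limma adjusted p = 0.000389 and 0.000509). P3h3, another prolyl 3-hydroxylase, was lower (−0.35 ± 0.11, limma adjusted p = 0.0359), a call lost without cKO P4 library 5 or 6 or floxed P4 library 2 (−0.25, adjusted p = 0.151). Plod2 was 17.1 to 23.5 RPKM in cKO P4 against 8.97 to 14.8 RPKM in floxed P4 libraries, and 19.3 to 30.6 RPKM in cKO vehicle against 9.66 to 15.9 RPKM in floxed vehicle libraries, with no overlap in either treatment. Progesterone raised P4ha2 by 1.13 ± 0.18 (limma adjusted p = 0.000103) in floxed uteri, and Tmem38b, an endoplasmic reticulum ion channel, by 0.39 ± 0.11 (limma adjusted p = 0.028) in cKO and 0.81 ± 0.11 (limma adjusted p = 1.36e-05) in floxed uteri. With progesterone 2 of the 22 were called in floxed uteri, 9.09% against 23.0% of all tested genes. In cKO uteri Tmem38b was the single gene of the 22 called, 4.55% against 8.67% of all tested genes. That cKO call was lost without cKO P4 library 4 or 8 or cKO vehicle library 11b or 12, with 0.27 without cKO P4 library 8 (adjusted p = 0.127).

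Propeptide cleavage and cross-linking genes moved both ways with genotype. Of 13 tested, 6 were higher and 4 lower in cKO vehicle than in floxed vehicle uteri, 76.9% against 24.6% of all tested genes. The 4 with the smallest adjusted p were Tgm2, a transglutaminase (−0.71 ± 0.10), Tll1, a procollagen C-proteinase (−1.03 ± 0.15), Adamts3, a procollagen N-proteinase (0.67 ± 0.10), and Pcolce2, an enhancer of C-proteinases (−1.18 ± 0.20), all with limma adjusted p of 0.000102 or less. After progesterone 3 were higher and 3 lower, 46.2% against 19.4% of all tested genes, with Tgm2 at −0.96 ± 0.14 (limma adjusted p = 2.89e-05), the fibril-binding proteoglycan Fmod at −0.98 ± 0.15 (limma adjusted p = 6.69e-05) and the C-proteinase Bmp1 at 0.45 ± 0.09 (limma adjusted p = 0.000893). Adamts14, another N-proteinase, was 1.96 to 2.67 RPKM in cKO P4, 2.35 to 3.88 RPKM in cKO vehicle, 6.23 to 7.22 RPKM in floxed P4 and 2.38 to 4.92 RPKM in floxed vehicle libraries, so the floxed P4 group lay above the other 3. Its progesterone response in floxed uteri was 0.90 ± 0.16 (limma adjusted p = 0.000223), its genotype difference after progesterone −1.37 ± 0.17 (limma adjusted p = 3.14e-06), and its difference in response −1.17 ± 0.20 (limma adjusted p = 0.00177). Adamts14 was the single gene called for that difference among the 22, 13, 10 and 6 tested genes of the 4 lists. Over all tested genes 2.49% were called for it. Progesterone lowered Tll1 (−0.82 ± 0.20) and the lysyl oxidase Lox (−0.78 ± 0.22) in floxed uteri (limma adjusted p = 0.0048 and 0.0117), and Loxl2 (−0.56 ± 0.14), another lysyl oxidase, in cKO uteri (limma adjusted p = 0.0127). Further calls were lost when 1 library was left out. Loxl1 in floxed uteri (−0.63 ± 0.23, limma adjusted p = 0.0498) was lost under 25 of 36 alternatives, with −0.57 without floxed P4 library 9 (adjusted p = 0.134). In cKO uteri the N-proteinase Adamts2 (−0.67 ± 0.19, limma adjusted p = 0.0303) was lost without cKO P4 library 5 or 6 or cKO vehicle library 9 (−0.47, adjusted p = 0.0568). Adamts3 (−0.47 ± 0.14, limma adjusted p = 0.0341) was lost without any of cKO P4 libraries 5, 6 and 8 or cKO vehicle libraries 10, 11b and 12, with −0.39 without library 11b (adjusted p = 0.0949).

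Of 10 tested receptors, 3 were higher in cKO uteri after vehicle and 1 after progesterone, where 13.1% and 12.3% of all tested genes were called higher. Progesterone lowered 3 in cKO and 4 in floxed uteri, where 4.66% and 15.1% of all tested genes were called lower. Mrc2, which takes up collagen fragments, was higher in cKO uteri after vehicle (0.34 ± 0.07, limma adjusted p = 0.000435) and after progesterone (0.52 ± 0.09, limma adjusted p = 0.000327). Itgb1, the beta chain of the collagen-binding integrins, was higher after vehicle (0.24 ± 0.05, limma adjusted p = 0.00134). Lair1, an inhibitory collagen receptor of leukocytes, passed narrowly after vehicle (0.45 ± 0.16, limma adjusted p = 0.0453) and was lost under 21 of 36 alternatives, with 0.38 without cKO vehicle library 10 (adjusted p = 0.0977). Progesterone lowered Mrc2 (−0.49 ± 0.09) and the fibrillar collagen receptor Ddr2 (−0.57 ± 0.10) in cKO uteri (limma adjusted p = 0.00101 and 0.00115). In floxed uteri Mrc2 fell by 0.67 ± 0.09 and Ddr2 by 0.71 ± 0.10 on the log2 scale (limma adjusted p = 8.92e-06 and 3.92e-05). Itga2, an integrin alpha chain that binds collagen, was called lower in cKO uteri (−0.53 ± 0.15, limma adjusted p = 0.0355), a call lost without any of cKO P4 libraries 4, 5 and 8 or cKO vehicle libraries 9, 10 and 11b, with −0.45 without cKO P4 library 4 (adjusted p = 0.104). In floxed uteri Itga2 and Cd44 were called lower too, and without floxed P4 library 1 they had −0.28 (adjusted p = 0.178) and −0.42 (adjusted p = 0.119).

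Of 6 tested breakdown genes, 2 were higher in cKO vehicle uteri, 33.3% against 13.1% of all tested genes called higher and 24.6% called in either direction. They were Mmp14, a membrane collagenase, and the cysteine protease Ctsk (0.31 ± 0.08 and 0.60 ± 0.19, limma adjusted p = 0.00772 and 0.0234). The Mmp14 call was lost within either batch alone. The Ctsk call was lost within the mixed batch alone and without cKO vehicle library 9 (0.50, adjusted p = 0.0558). In the other 4 comparisons limma called 0 of the 6. At an unadjusted p under 0.05 it gave 1 gene higher between genotypes after progesterone, 0 with progesterone in cKO uteri, 1 higher and 1 lower with progesterone in floxed uteri, and 0 for the difference in response. The smallest p in each of these belonged to Ctsk between genotypes after progesterone (0.63 ± 0.27, limma adjusted p = 0.108), Mmp9, a gelatinase, with progesterone in floxed uteri (−0.78 ± 0.29, limma adjusted p = 0.0534) and for the difference in response (0.55 ± 0.38, limma adjusted p = 0.563), and Pepd, a dipeptidase that frees proline, with progesterone in cKO uteri (−0.24 ± 0.12, limma adjusted p = 0.253).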

How the data were processed

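RNA of 24 mouse uterus libraries was described from 1 deposited gene table. Its values are a score made by the authors: RPKM after a batch correction, which leaves 6.66% of values below 0. The form of the correction is not stated, and it was taken here to add a constant per gene and batch. The submitters' processing notes name cutadapt 2.7, TopHat, Partek and mm10 (counting tool, annotation, strand and batch tool: not given in the sources used here). Planned for plain RPKM, the test was kept: values below 0 were set to 0, log2(value + 0.5) was taken, which shrinks fold changes of low genes, while batch constants that bring values to 0 can enlarge them, and 14284 genes that reached 1 RPKM in 4 or more libraries were fitted with limma 3.58.1 under R 4.3.3 (trend and robust eBayes) on 4 groups and the library batch. The fit had 19 residual degrees of freedom, to which the prior added 3.34 (median). P-values were adjusted by Benjamini-Hochberg over all tested genes, two-sided, with a threshold of 0.05. The step was tested on simulated data. Depth had a median of 72.7 M reads in the mixed and 49.9 M reads in the vehicle-only batch, so low values are less precise in the vehicle-only batch.

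Members were every collagen alpha chain row, and Col21a1 was not analysed here. Every library's value, or the range, is given for the type I, III and principal type IV chains, Col6a1, Col6a5 and up to 4 called chains per comparison; up to 4 called companion genes per list and comparison are named, and others where a count is small. Members and lists were chosen with earlier results of these data known. Alternatives changed the pseudocount, filter, scaling, scale, batch term, batches, replicate block, library weights, variance prior and libraries.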

Additional observations from a re-analysis of the deposited data

Results flagged for a closer look

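In 144 groups of values, 1 tested chain in 1 group each, the highest or lowest library was set against Dixon's 95% critical value, which chance passes in about 1 in 20 groups. The value stood apart in 28 groups, and 4 libraries account for most of them. These libraries also stand apart together, so the flagged values are not independent of each other.

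In cKO vehicle library 9 the highest value of the group stood apart for 10 chains: Col1a1 (673 RPKM), Col1a2 (706 RPKM), Col3a1 (860 RPKM), Col5a1 (119 RPKM), Col5a2 (109 RPKM), Col5a3 (35.8 RPKM), Col6a1 (395 RPKM), Col6a3 (124 RPKM), Col6a4 (189 RPKM) and Col7a1 (30.7 RPKM). In cKO P4 library 8 it did so for Col6a1 (215 RPKM), Col6a2 (194 RPKM), Col8a2 (9.82 RPKM), Col16a1 (51.9 RPKM) and Col17a1 (1.97 RPKM). Squamous keratin genes were high in both libraries. Smooth muscle genes were too, summing to 2227 RPKM in cKO vehicle library 9 and 2088 RPKM in cKO P4 library 8, against at most 1835 RPKM elsewhere. The stromal sum was highest in cKO vehicle library 9 (897.6 RPKM). Inferred depth was lowest of the mixed batch in these libraries, at 45.0 and 51.2 M reads. The part of tissue content or depth in these values was not tested. Floxed P4 library 1 was low for Col6a6 (4.56 RPKM), Col7a1 (4.88 RPKM), Col12a1 (8.09 RPKM) and Col15a1 (103 RPKM), and floxed P4 library 2 was high for Col4a2 (134 RPKM), Col5a1 (61.4 RPKM) and Col6a1 (246 RPKM). Among floxed vehicle libraries, 1a was low for Col4a1 (105 RPKM) and Col4a2 (89.1 RPKM), 7 was high for Col4a3 (7.21 RPKM) and Col6a6 (13.1 RPKM), and 10 was low for Col27a1 (5.31 RPKM). Col9a2 was high in cKO vehicle library 4 (15.6 RPKM).

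The progesterone response differed between genotypes, by limma's test of the difference itself, for Col22a1 (−1.74), Col12a1 (−1.09), Col15a1 (−0.89) and Col6a5 (−2.19), all as cKO minus floxed on the log2 scale.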

How the results depend on the processing

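Chain counts moved under some of the 36 or 37 alternatives, and the cause was not tested unless the alternative leaves out samples or genes. Genotype after vehicle gave 18 chains, 8 in the vehicle-only batch and 15 to 19 without 1 library. Genotype after progesterone gave 5, 3 with a filter at 5 RPKM, 8 in the mixed batch, 19 with weights per library and 3 to 6 without 1 library. Its 3 higher and 2 lower calls became 2 and 3 without floxed P4 library 1, 2 and 2 without cKO P4 library 8, and 3 and 3 without cKO vehicle library 9 or without the 5 libraries with oviduct or squamous markers. Progesterone gave 12 in cKO uteri, with 7 on untransformed RPKM, 24 with weights and 7 to 13 without 1 library, and 11 in floxed uteri, with 7 without those 5 libraries and 8 to 12 without 1 library. The difference in response gave 4, with 2 in the mixed batch, 13 with weights, 2 without those 5 libraries and 3 to 5 without 1 library. Weights per library, whose estimation did not converge, reversed the genotype difference of Col20a1 after progesterone (0.51, against −0.01).

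The labels do not say what a replicate number marks, so the numbers were not taken to pair the samples. Deviations of same-numbered libraries correlated at −0.256 to 0.639 over 11 pairs of libraries from different groups, 6 of them over 0.1. Within a group, floxed vehicle libraries 1a and 1b correlated at −0.385, and cKO vehicle libraries 11a and 11b at 0.013. Pairs with different numbers were not examined, so these values cannot decide whether the numbers pair the samples. With the number as a replicate block, 3 chains were called for genotype after progesterone: Col6a4 remained, Col12a1, Col15a1, Col6a5 and Col9a3 were lost (adjusted p up to 0.528), and Col4a3 and Col4a4 were gained. The block also lost Col6a2, Col15a1, Col18a1, Col20a1 and Col27a1 for genotype after vehicle. It left 3 chains, Col6a5, Col13a1 and Col14a1, for progesterone in cKO uteri and 0 for the difference (limma; 5 lower and 0 higher at an unadjusted p under 0.05).

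Over all tested genes, weights per library called 7123 genes for genotype after progesterone (2767 without weights), 6500 for genotype after vehicle (3516), 5965 for progesterone in cKO uteri (1238), 6276 for progesterone in floxed uteri (3280) and 4122 for the difference (355). The block called 822 for genotype after progesterone, 162 for progesterone in cKO uteri and 26 for the difference. The vehicle-only batch called 1178 for genotype after vehicle, and the filter at 5 RPKM called 2293 there and 236 for the difference. Without the 5 libraries 398 genes were called for progesterone in cKO uteri, 2064 in floxed uteri and 213 for the difference. Progesterone in cKO uteri called 1909 without a batch term. The difference called 210 without cKO P4 library 5 and 716 without floxed vehicle library 12. The part of depth in the values of chains near 1 RPKM was not tested.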

Other observations

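Chain ratios within a library, which were not tested, varied with treatment or genotype. Col1a1 over Col3a1 was 0.523 to 0.587 in cKO P4 against 0.677 to 0.818 in cKO vehicle libraries, and 0.521 to 0.795 in floxed P4 against 0.667 to 0.849 in floxed vehicle libraries. The cKO ranges did not overlap between treatments and the floxed ranges did. Col4a5 over Col4a1, a minor over a principal type IV chain, was 0.374 to 0.429 in cKO P4, 0.214 to 0.359 in cKO vehicle, 0.261 to 0.332 in floxed P4 and 0.184 to 0.373 in floxed vehicle libraries, highest in the cKO P4 group. Col6a4 over Col6a3, a replacement over a common type VI chain, was 1.81 to 2.51 in cKO P4 against 0.698 to 0.845 in floxed P4 libraries, without overlap, and 1.20 to 2.46 in cKO vehicle against 0.776 to 1.54 in floxed vehicle libraries, with overlap.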
